A study of Homo sapiens with 6 samples.

Results

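Transcripts of 56 ribosome biogenesis and nucleolar factors, genes chosen by name from the 18806 gene symbols of the deposited table, were followed in leukaemia cells that received a guide RNA against METTL1 or a control guide. A row was found for 55 of the 56, and UBTF, which helps RNA polymerase I start transcription, is not analysed here. The 55 genes were sorted by textbook role: 3 abundant nucleolar proteins with several roles, 8 proteins of small nucleolar ribonucleoproteins (snoRNPs), 18 small subunit factors, 21 large subunit factors and 5 genes of RNA polymerase I transcription. All 55 had a mean of at least 5 TPM, so none was lost to the filter on low values, which left 10911 genes (mean TPM 1 or more) for testing.

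Ribosomes are built in the nucleolus, where RNA polymerase I copies ribosomal DNA into a long precursor RNA. SnoRNPs of the box C/D kind guide methylation of that RNA and those of the H/ACA kind guide the change of uridine to pseudouridine, while assembly factors cut and fold the precursor into the small and the large subunit with ribosomal proteins. Growing cells, leukaemia cells among them, make these factors at high levels, and MYC is a known activator of many of their genes.

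The cells were of the line Mono-Mac-6, which comes from a human monocytic acute myeloid leukaemia and carries the MLL-AF9 fusion, and all groups descended from a single clone that makes Cas9. Lentivirus delivered the control guide sgNS or 1 of 2 guides against METTL1, a tRNA methyltransferase that makes N7-methylguanosine, called sgMETTL1.3 and sgMETTL1.6. Carriers were selected with 2 antibiotics, blasticidin at 10 µg/ml together with hygromycin B at 200 µg/ml, then harvested some 8 to 10 days after transduction. Each of the 3 groups had 2 poly(A) RNA libraries, 6 in all, and the labels do not say whether these were separate cultures, so p-values measure only the spread between libraries, which may be technical.

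TPM, a transcript's length-corrected share of a library scaled to a fixed total, keeps no read depth. The depth is therefore unknown, and counting intervals are not given. METTL1 itself stood at 15.38 and 13.89 TPM with sgNS, 18.29 and 16.56 TPM in the libraries labelled sgMETTL1.3, and 11.15 and 11.69 TPM in those labelled sgMETTL1.6. Its mRNA was thus not lower than control in the libraries labelled sgMETTL1.3, and each direction given below rests on the labels. Gene-level TPM does not read the small insertions or deletions that Cas9 leaves. Of the line's markers, CD33 (48.77 to 51.17 TPM), LYZ (9206 to 11420 TPM), HOXA9, MEIS1, MPO and FLT3 were present in every library, whereas CD14, CD4 and CSF1R were at most 0.90 TPM. FLT3 (log2 -0.40), MPO (-0.47), HOXA9 (-0.32), LYZ (-0.14) and ITGAM (-0.64) were lower over both guides, and the part of that shift in the results below was not tested. Of these, LYZ did not pass with sgMETTL1.3 (log2 -0.045, limma adjusted p = 0.18) and was lower with sgMETTL1.6 (-0.24, adjusted p = 1.1e-05). Of other cell types' markers, the T cell genes CD3D, CD3E, CD3G and CD2, the B cell gene MS4A1 and the erythroid gene HBB were listed at 0 in all 6 libraries. HBA1 was at 1.34 and 0 TPM with sgNS and 1.62 to 2.67 TPM with the guides (log2 1.05, adjusted p = 0.0023). KRT18, an epithelial keratin, was at 16.33 TPM in both controls and 11.48 to 12.74 TPM with the guides (log2 -0.38, adjusted p = 6.5e-05), and the part of either in the results was not tested. In bulk libraries, a change in how many cells express a gene and a change in RNA per cell cannot be told apart.

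Most of the factors were higher with the METTL1 guides, by log2 changes from 0.080 (NOP14) to 0.52 (NOP2) among those that rose. Over both guides, meaning their average against sgNS, 48 of the 55 rose, 2 fell and 5 did not pass the test (limma, adjusted p under 0.05). Of all 10911 genes tested, 59.4% passed in the same comparison, 32.6% as rises and 26.8% as falls. The median change of the 55 was 0.29 on the log2(TPM + 1) scale against 0.023 over all genes tested, and 13.0% of all genes lay above that median of the factors. The median level was 81.2 TPM for the 55 and 27.1 TPM over all genes tested, and the comparison was not matched for level. Of the 55, 35 rose by 0.25 or more on the log2 scale, 2 by 0.5 or more and 0 by 1 or more. In 47 of the 55, all 4 guide libraries stood above both sgNS libraries, and in 2 they stood below both, where 32.9% and 27.3% of all genes did so. The 2 that fell were NOP10 and WDR12. Together the 55 transcripts took 0.782% and 0.787% of the TPM with sgNS, 0.935% and 0.913% in the libraries labelled sgMETTL1.3, and 0.894% and 0.885% in those labelled sgMETTL1.6. Their summed level was 1.16 times that of the controls.

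**Figure D1:**
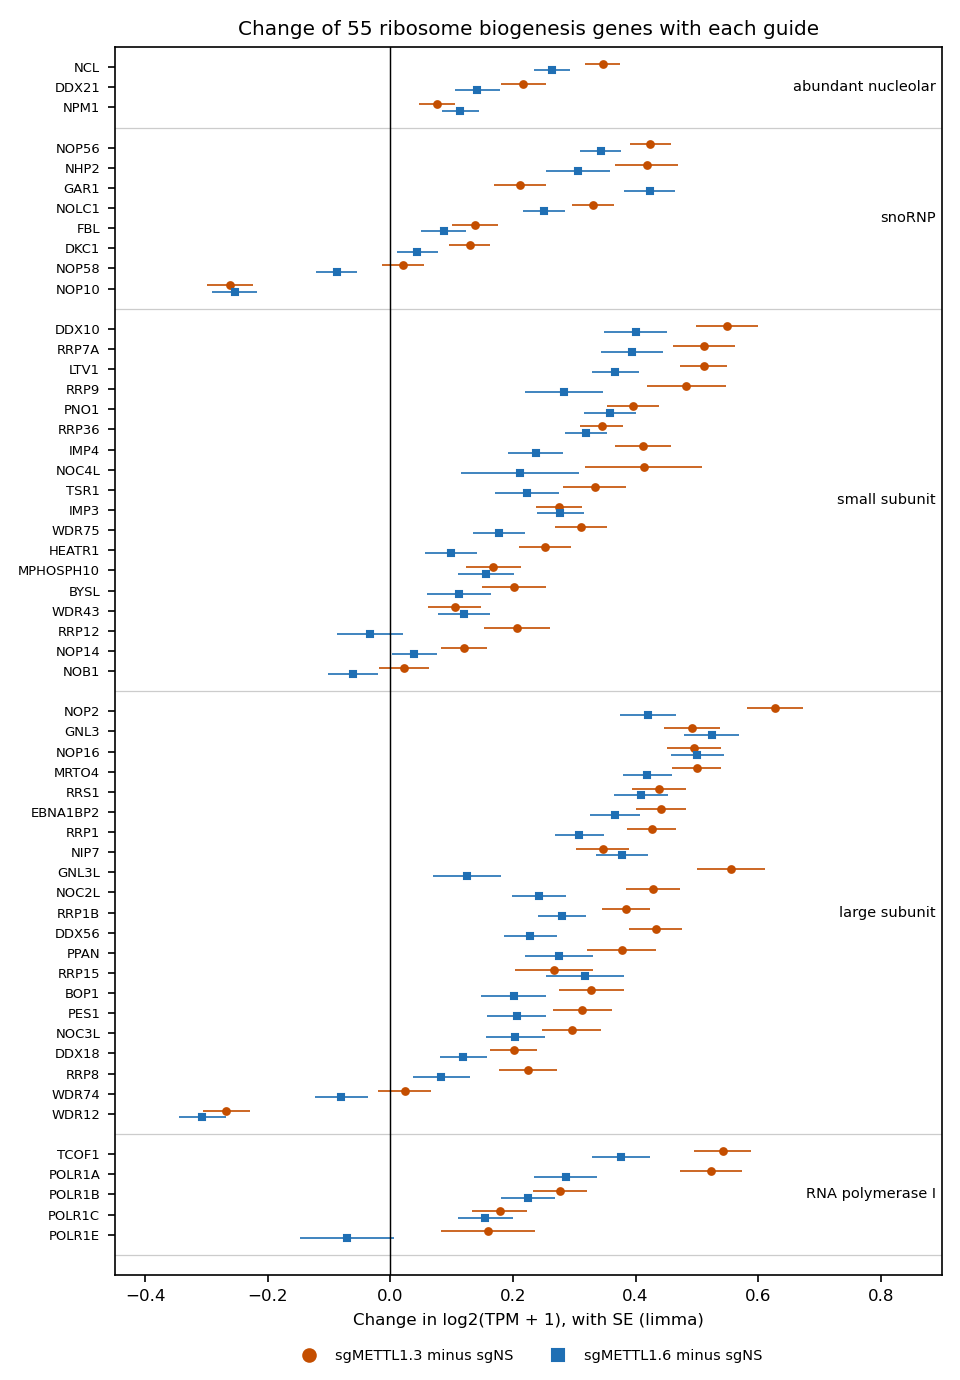
Change of each of the 55 genes on the log2(TPM + 1) scale for each METTL1 guide against sgNS, with the standard error from limma as bars, by class. Nearly all points lie right of 0, NOP10 and WDR12 lie left of it with both guides, and GNL3L shows the widest gap between the guides (0.56 and 0.13).

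The abundant nucleolar proteins all rose, by different amounts. Nucleolin (NCL, chromosome 2, 231453531 to 231483641 in GRCh38), which binds the precursor RNA and ribosomal DNA chromatin, was measured at 1377 and 1390 TPM with sgNS, 1799 and 1720 TPM in the libraries labelled sgMETTL1.3 and 1690 and 1634 TPM in those labelled sgMETTL1.6. Every guide library was above both controls, a log2 change of 0.31 ± 0.025 (SE, limma adjusted p = 3.7e-07). NPM1, nucleophosmin, the histone and ribosome chaperone that gives the nucleolus its liquid outer layer, had the highest level of the 55 but one of the smallest rises. It was at 1687 and 1658 TPM with sgNS, 1801 and 1725 TPM for sgMETTL1.3 and 1854 and 1767 TPM for sgMETTL1.6 (log2 0.095 ± 0.026, adjusted p = 0.0074). Every guide library was above both controls, but the test was not passed when low genes were kept, without ribosomal protein genes, without a variance trend and without sgNS replicate 2 (adjusted p = 0.057 to 0.091). GENCODE 29 names 45 pseudogenes of NPM1, which could share its reads. DDX21, a helicase that binds ribosomal DNA and snoRNAs, was at 216.9 and 218.4 TPM in the controls, 254.8 and 251.5 TPM for sgMETTL1.3 and 247.3 and 233.5 TPM for sgMETTL1.6 (log2 0.18 ± 0.031, adjusted p = 0.00026). All 4 guide values lay above the controls.

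Of the 8 snoRNP proteins 6 rose, 1 fell and 1 did not pass, with a median log2 change of 0.20, and partners within one particle moved apart. Of the box C/D core, the list holds a methyltransferase, fibrillarin (FBL), and the related scaffold proteins that hold it, NOP56 and NOP58. Another box C/D protein, SNU13, is counted in the wider list below and rose by 0.16 (limma adjusted p = 0.00063). FBL stood at 266.5 and 274.9 TPM with sgNS, 290.1 and 305.7 TPM for sgMETTL1.3 and 282.6 and 292.6 TPM for sgMETTL1.6. It rose slightly, with every guide library above both controls (log2 0.11 ± 0.032, adjusted p = 0.0080), and the call was lost without a variance trend or without sgNS replicate 1 (adjusted p = 0.057 and 0.11).

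NOP56 (chromosome 20, 2652145 to 2658393) rose from 268.8 and 275.9 TPM in the controls to 373.2 and 358.3 TPM in the libraries labelled sgMETTL1.3 and 342.9 and 348.3 TPM in those labelled sgMETTL1.6. Its log2 change was 0.38 ± 0.029 (SE, adjusted p = 1.6e-07). NOP58 showed no such step: it was at 197.5 and 193.0 TPM with sgNS, 199.5 and 196.3 TPM for sgMETTL1.3 and 185.2 and 182.0 TPM for sgMETTL1.6. Over both guides its log2 change was -0.034 (adjusted p = 0.34), and set against sgNS the sgMETTL1.6 libraries fell by 0.088 (adjusted p = 0.046). That call was lost with any 1 of the 6 libraries left out, without a variance trend and with sgMETTL1.6 and sgNS fitted alone. The ratio of NOP56 to NOP58 TPM was 1.361 and 1.43 in the controls and between 1.825 and 1.914 in the 4 guide libraries, so the ranges did not overlap.

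The H/ACA core consists of the pseudouridine synthase dyskerin (DKC1) and the small proteins NOP10, NHP2 and GAR1. NOP10 (chromosome 15, 34341713 to 34343177), which supports the catalytic site of dyskerin, had the highest level of the particle's mRNAs and was lower with both guides. It was at 415.4 and 418.9 TPM with sgNS, 350.1 and 345.2 TPM for sgMETTL1.3 and 336.7 and 363.0 TPM for sgMETTL1.6. All guide libraries stood below both controls (log2 -0.26 ± 0.032, adjusted p = 1.4e-05).

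Its partners went the other way. NHP2, an RNA-binding subunit, was at 86.79 and 96.23 TPM with sgNS and rose to 124.5 and 120.4 TPM for sgMETTL1.3 and 108.9 and 117.7 TPM for sgMETTL1.6 (log2 0.36 ± 0.045, adjusted p = 1.7e-05). GAR1, the subunit needed for release of the product, was at 61.79 and 60.79 TPM with sgNS, 71.72 and 70.52 TPM for sgMETTL1.3 and 84.43 and 80.63 TPM for sgMETTL1.6 (log2 0.32 ± 0.037, adjusted p = 8.2e-06). The 3 groups of GAR1 were separate, with sgMETTL1.6 highest. DKC1 differed least, with 200.2 and 204.3 TPM in the controls, 223.9 and 218.6 TPM for sgMETTL1.3 and 206.9 and 210.2 TPM for sgMETTL1.6 (log2 0.086, adjusted p = 0.022). Its call was lost under 7 of 16 alternatives, the 3 rescalings among them, with adjusted p from 0.0074 to 0.17 over all 16.

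In TPM per library, the ratio of NOP10 to NHP2 was 4.786 and 4.353 with sgNS and 2.812 to 3.091 with the METTL1 guides. That of NOP10 to GAR1 was 6.722 and 6.891 against 3.987 to 4.895. Both ratios were chosen after the values were seen, as were the others given here. NOLC1, a phosphoprotein that ferries snoRNPs, was at 161.1 ± 1.73 TPM with sgNS (SD, n = 2), 202.9 ± 0.728 TPM for sgMETTL1.3 and 191.9 ± 3.02 TPM for sgMETTL1.6, and rose by 0.29 (adjusted p = 2.5e-06).

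**Figure D2:**
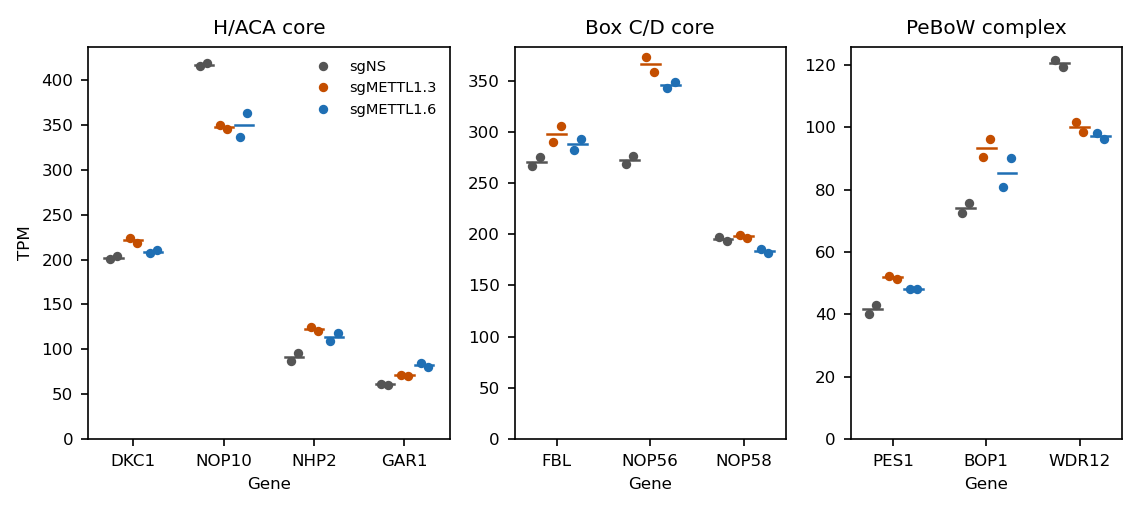
TPM of each library (points, 2 per group) with the group mean (line) for the H/ACA core, the listed proteins of the box C/D core and the PES1, BOP1 and WDR12 complex. NOP10 and WDR12 are lower with both METTL1 guides while their partners are higher, DKC1 least. NOP56 is higher with NOP58 near the control level. With sgMETTL1.6, DKC1 did not pass the test (log2 0.044, limma adjusted p = 0.30).

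Small subunit factors rose or did not pass: of 18, 16 rose, 0 fell in limma at adjusted p under 0.05 (also 0 at an unadjusted p under 0.05) and 2 did not pass, with a median log2 change of 0.28. The helicase DDX10 changed most, from 30.58 and 30.94 TPM with sgNS to 47.41 and 43.63 TPM in the libraries labelled sgMETTL1.3 and 41.1 and 40.69 TPM in those labelled sgMETTL1.6 (log2 0.48 ± 0.044, adjusted p = 1.2e-06). RRP7A, an early factor of the precursor particle, was at 29.45 and 31.04 TPM with sgNS, against 42.71 and 44.39 TPM for sgMETTL1.3 and 38.94 and 41.2 TPM for sgMETTL1.6 (log2 0.45 ± 0.045, adjusted p = 1.9e-06). For LTV1, which leaves the small subunit late in its maturation, the values were 129.3 and 131.3 TPM, 189.4 and 182.8 TPM, and 172.0 and 164.6 TPM (log2 0.44 ± 0.033, adjusted p = 1.4e-07). In all of these the groups were fully separate, with sgMETTL1.3 highest. RRP36, the most abundant of the class, rose from 154.9 and 156.0 TPM to 199.2 and 196.3 TPM for sgMETTL1.3 and 190.8 and 197.6 TPM for sgMETTL1.6 (log2 0.33 ± 0.030, adjusted p = 9.5e-07).

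The early small subunit precursor is held by a few subcomplexes, and most of their listed proteins rose. In the complex of MPHOSPH10 with IMP3 and IMP4, the log2 changes were 0.16, 0.28 and 0.33 (adjusted p = 0.0029, 9.8e-06 and 1.1e-05). The U-three-protein factors HEATR1, WDR75 and WDR43, which load while RNA polymerase I is still transcribing, rose by 0.18, 0.24 and 0.11. RRP9, a protein of the snoRNP needed to cut the precursor, rose by 0.38. NOC4L and its partner NOP14 rose by 0.31 and 0.080, with adjusted p of 0.0058 and 0.049.

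Calls for NOP14, NOC4L and WDR43 depended on the settings. NOP14 passed in 6 of 16 alternatives (adjusted p = 0.021 to 0.36 over all) and WDR43 in 8 of 16 (0.0043 to 0.098). NOC4L lost its call with no filter on low values and without sgNS replicate 1 (adjusted p = 0.080 and 0.070), and its libraries overlapped.

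Factors of late maturation moved unevenly. PNO1, which holds the end of the small subunit's RNA, rose by 0.38 (adjusted p = 2.0e-06), and its means were 46.5 ± 0.813 TPM for sgNS, 61.5 ± 1.19 TPM for sgMETTL1.3 and 59.9 ± 0.0778 TPM for sgMETTL1.6 (SD, n = 2 each). NOB1, the nuclease that trims that end once PNO1 leaves, stood at 74.24 and 74.45 TPM, 74.83 and 76.16 TPM, and 69.97 and 72.46 TPM (log2 -0.020, adjusted p = 0.65). The ratio of NOB1 to PNO1 was 1.577 and 1.621 in the controls and 1.169 to 1.255 with the guides. TSR1, a GTPase-like factor that blocks early use of the subunit, rose by 0.28, and BYSL by 0.16 (adjusted p = 0.0089, and 0.10 without sgNS replicate 1). RRP12, an export factor, did not pass over both guides (log2 0.086, adjusted p = 0.14).

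Large subunit factors showed the largest rises of the list: 19 of 21 rose, 1 fell and 1 did not pass, and the median log2 change was 0.33. NOP2 (chromosome 12, 6556863 to 6568691), a methyltransferase of the large subunit's RNA, rose from 57.73 and 55.42 TPM with sgNS to 89.85 and 85.94 TPM in the libraries labelled sgMETTL1.3 and 73.7 and 78.43 TPM in those labelled sgMETTL1.6. All groups were separate, and the log2 change was 0.52 ± 0.040 (adjusted p = 2.0e-07). Of the 4687 exon bases of NOP2 in GENCODE 29, 2550 are shared on the same strand with another annotated gene, so its reads may be split.

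GNL3 (chromosome 3, 52681156 to 52694492), nucleostemin, a nucleolar GTPase of proliferating and stem cells, was at 149.2 and 147.2 TPM in the controls, 216.0 and 201.9 TPM for sgMETTL1.3 and 222.6 and 204.9 TPM for sgMETTL1.6 (log2 0.51 ± 0.039, adjusted p = 1.9e-07). NOP16 rose from 69.95 and 74.75 TPM to 100.2 and 104.6 TPM and 104.0 and 101.5 TPM (log2 0.50 ± 0.038, adjusted p = 2.0e-07). For both genes the guides overlapped with each other and stood clear of the controls.

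WDR12 (chromosome 2, 202874782 to 203014798) was the exception. With PES1 and BOP1 it forms the PeBoW complex, which is needed to process the large subunit's RNA. WDR12 mRNA fell from 121.6 and 119.3 TPM with sgNS to 101.5 and 98.33 TPM for sgMETTL1.3 and 98.1 and 96.28 TPM for sgMETTL1.6 (log2 -0.29 ± 0.033, adjusted p = 8.6e-06). PES1 rose from 40.01 and 43.13 TPM to 52.29 and 51.42 TPM and 48.04 and 48.11 TPM (log2 0.26 ± 0.042, adjusted p = 0.00015), and BOP1 from 74.1 ± 2.20 to 93.3 ± 3.95 and 85.4 ± 6.64 TPM (SD, n = 2; log2 0.26, adjusted p = 0.00028). The ratio of WDR12 to PES1 was 3.04 and 2.765 in the controls and between 1.912 and 2.042 with the guides.

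Other large subunit factors rose by log2 changes from 0.15 to 0.46: MRTO4 (0.46), a stand-in for a stalk protein, RRS1 (0.42), which helps bring in the 5S RNA particle, EBNA1BP2 (0.40), RRP1 (0.37), NIP7 (0.36), GNL3L (0.34), NOC2L (0.34), RRP1B (0.33), the helicase DDX56 (0.33), PPAN (0.33), RRP15 (0.29), NOC3L (0.25), the helicase DDX18 (0.16) and the RNA methyltransferase RRP8 (0.15). All passed the test, and for each of them every guide library was above both controls. WDR74, which helps release a remodelling enzyme from the precursor, did not pass (82.2 ± 0.438 TPM for sgNS, 83.6 ± 2.54 TPM for sgMETTL1.3, 77.7 ± 2.83 TPM for sgMETTL1.6, SD, n = 2 each; log2 -0.029, adjusted p = 0.53). PPAN shares exons with the read-through gene PPAN-P2RY11, which was listed at 0 in every library, so a split of its reads cannot be seen.

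**Figure D3:**
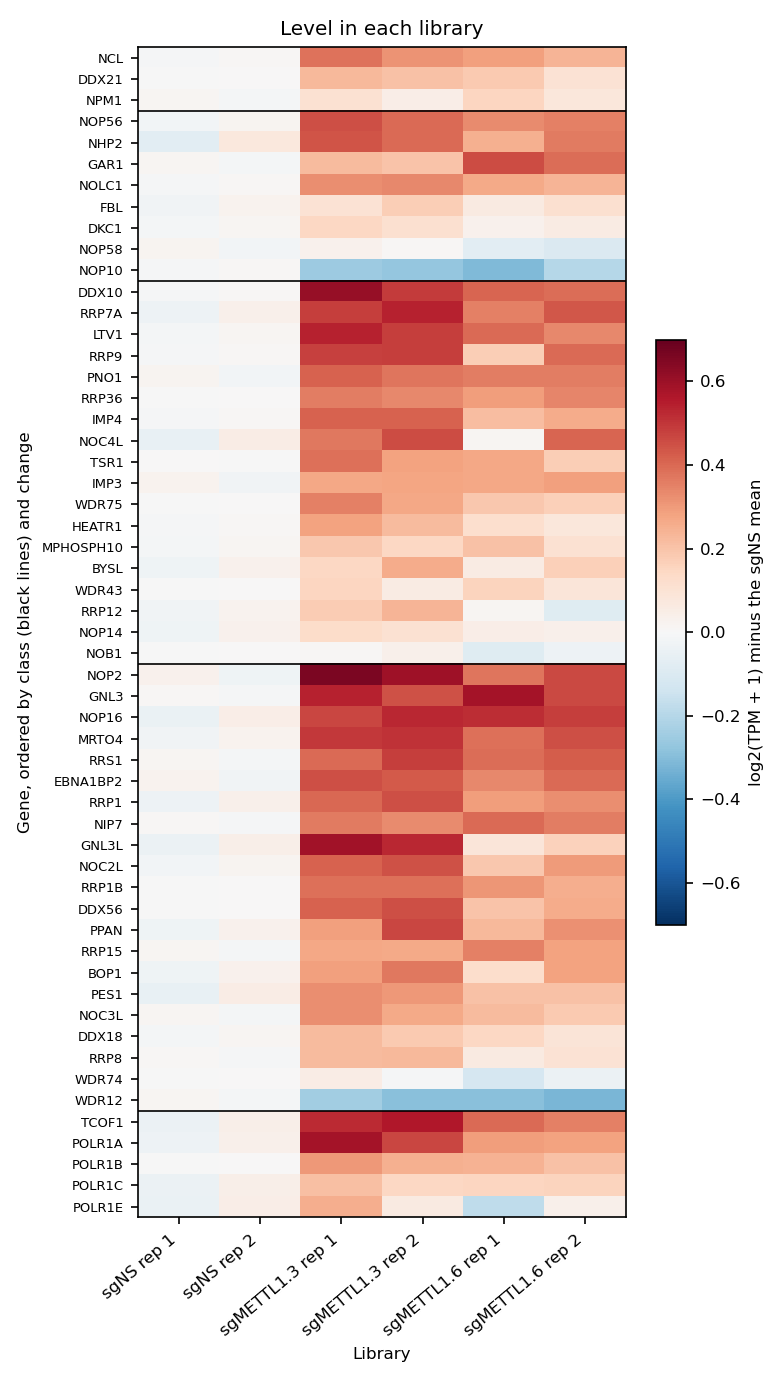
Level of each of the 55 genes in each of the 6 libraries, as log2(TPM + 1) minus the mean of the sgNS libraries (red higher, blue lower), with black lines between classes. The 2 sgNS libraries are near 0, and the guide libraries are higher in most rows with NOP10 and WDR12 lower in all 4.

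Of the 5 genes of RNA polymerase I transcription with a row, 4 rose and 1 did not pass, with a median log2 change of 0.25. TCOF1, treacle, which keeps the polymerase at ribosomal DNA, rose from 40.91 and 43.3 TPM to 60.84 and 62.65 TPM in the libraries labelled sgMETTL1.3 and 55.73 and 54.1 TPM in those labelled sgMETTL1.6 (log2 0.46 ± 0.040, adjusted p = 7.1e-07). The largest catalytic subunit, POLR1A, was at 40.08 and 42.29 TPM, 62.08 and 57.21 TPM, and 50.61 and 50.22 TPM (log2 0.40 ± 0.044, adjusted p = 4.8e-06). Its partner in the active site, POLR1B, was at 44.59 and 44.87 TPM, 55.42 and 53.43 TPM, and 53.11 and 51.78 TPM (log2 0.25 ± 0.038, adjusted p = 9.7e-05). All 3 genes had separate control and guide values.

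POLR1C, a subunit that RNA polymerase III also uses, had the highest level of the class, at 63.11 and 67.06 TPM with sgNS, 75.44 and 72.09 TPM for sgMETTL1.3 and 72.41 and 72.67 TPM for sgMETTL1.6 (log2 0.17 ± 0.039, adjusted p = 0.0025, and 0.065 without sgNS replicate 1). POLR1E, a subunit outside the catalytic core, overlapped between groups at 24.3 and 26.01 TPM, 30.18 and 26.33 TPM, and 22.13 and 25.76 TPM (log2 0.044, adjusted p = 0.59).

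Each guide was also set against the controls alone, and both comparisons share the same 2 sgNS libraries. Of the 55 genes, 39 passed as rises with each guide and 2 as falls with each. A further 9 passed as rises with sgMETTL1.3 but did not pass with sgMETTL1.6: FBL, DKC1, NOP14, NOC4L, BYSL, HEATR1, RRP8, RRP12 and GNL3L. WDR43 passed as a rise with sgMETTL1.6 only. The share of all genes that passed with both guides, or with a single guide only, was not computed. These joint counts thus have no background beside them and are not read as a result about the factors. With sgMETTL1.3, 48 of 55 rose and 2 fell, where 34.3% and 24.2% of all genes did (58.5% in either direction), and the median log2 change was 0.33. With sgMETTL1.6, 40 rose and 3 fell (2 without NOP58, whose call was lost with any library left out), where 25.7% and 25.3% of all genes did (51% in either direction), and the median was 0.23.

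The guides were then tested directly against each other. Of the 55 genes 15 were lower in the libraries labelled sgMETTL1.6 than in those labelled sgMETTL1.3, 1 was higher and 39 did not pass. Over all genes 23% passed, 15.8% lower and 7.23% higher, with a median log2 difference of -0.050 against -0.090 for the 55. GNL3L, a GTPase related to GNL3, had the largest difference, at 33.8 and 32.35 TPM for sgMETTL1.3, 23.59 and 24.95 TPM for sgMETTL1.6 and 21.56 and 22.79 TPM with sgNS (log2 -0.43, adjusted p = 0.00024). RRP12 was at 30.86 and 32.22 TPM for sgMETTL1.3, 27.47 and 25.64 TPM for sgMETTL1.6 and 26.72 and 27.7 TPM with sgNS (log2 -0.24, adjusted p = 0.0085). POLR1A (-0.24, adjusted p = 0.0063), POLR1E (-0.23, adjusted p = 0.048) and NOP2 (-0.21, adjusted p = 0.0082) were lower too. GAR1 alone was higher with sgMETTL1.6 (log2 0.21, adjusted p = 0.0045). Without sgMETTL1.3 replicate 1, sgMETTL1.3 replicate 2 or sgMETTL1.6 replicate 1, 5, 8 and 7 of the 55 were lower. Of the 15, 5 (GNL3L, RRP12, POLR1A, NOP2 and DDX56) stayed lower under each of the 3 rescalings of the libraries, where the median of the 55 was -0.045 to -0.057 and that of all genes -0.008 to -0.020.

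A wider list of 120 other ribosome biogenesis genes, of which 116 were in the table and tested, showed how far the pattern reached. Over both guides 68 rose (58.6%), 14 fell (12.1%) and 34 did not pass, with a median log2 change of 0.16. Of all genes tested, 32.6% rose and 26.8% fell. Among small subunit factors 26 of 37 rose and 2 fell, led by the large scaffold UTP20 (log2 0.76, from 9.54 to 17.0 TPM), NOL6 (0.59) and the GTPase BMS1 (0.50), and the falls were NAT10 (-0.15), which acetylates RNA, and FCF1 (-0.11). The shares of these small subunit factors were 70.3% higher and 5.41% lower. Of 46 large subunit factors 29 rose (63%) and 5 fell (10.9%). CCDC86 (0.68), MYBBP1A (0.55) and the methyltransferase FTSJ3 (0.55) rose most. RSL24D1, which holds the place of a ribosomal protein on the precursor, fell by 1.05 on the log2 scale, from 569.6 to 275.0 TPM (adjusted p = 1.7e-10). NOP53 (-0.32), the export adaptor NMD3 (-0.24), RSL1D1 (-0.098) and SBDS (-0.093) fell as well.

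Of 11 snoRNP assembly proteins and partners, 5 rose (45.5%), 1 fell (9.09%) and 5 did not pass, with a median log2 change of 0.090. NUFIP1 (0.43), SHQ1 (0.27) and RUVBL2 (0.24) rose and PIH1D1 fell (-0.32). Of 9 other RNA polymerase I genes 4 rose (44.4%): POLR1G (0.57), TTF1 (0.24), POLR1F (0.19) and TAF1D (0.15). In the same class 2 fell (22.2%), POLR1D (-0.29) and POLR1H (-0.11). Their class median was 0.073, and for only 9 genes these shares lie near the 32.6% and 26.8% of all genes. The exosome, the nuclease complex that trims precursor RNAs, had 4 of 13 genes up and 4 down (30.8% each) and a median of 0.002, near the 32.6% and 26.8% of all genes. EXOSC3 (0.40), EXOSC10 (0.18), MPHOSPH6 (0.17) and EXOSC2 (0.12) rose, while EXOSC8 (-0.60), EXOSC1 (-0.32), EXOSC9 (-0.29) and EXOSC5 (-0.24) fell.

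**Figure D4:**
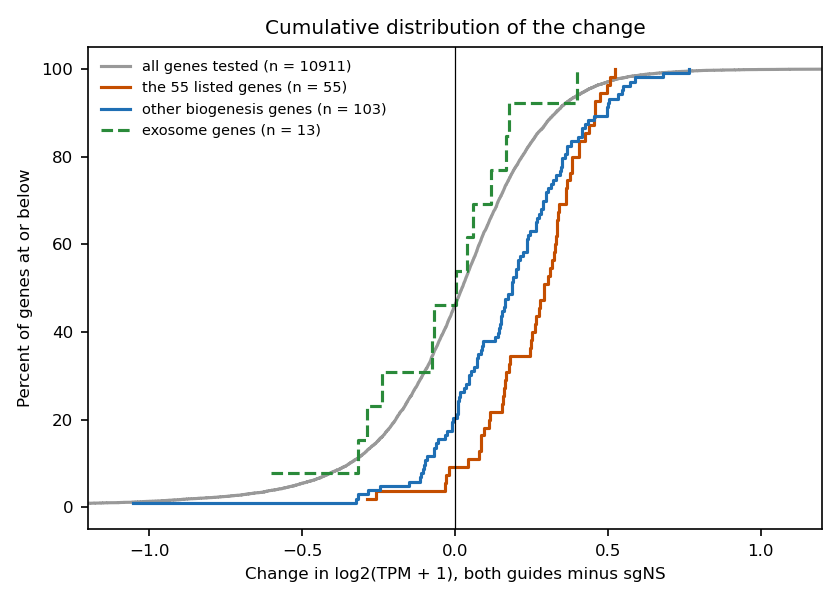
Cumulative percent of genes (vertical axis) by log2(TPM + 1) change over both guides against sgNS (horizontal axis) for all 10911 genes tested, the 55 listed genes, 103 other biogenesis genes and 13 exosome genes. The curve of the 55 lies to the right of that of all genes around its median of 0.29, and the exosome curve runs near that of all genes.

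Ribosomal protein genes, whose products these factors assemble, had a median log2 change of -0.12 in the same fit, with 60 of 77 tested lower and 1 higher. Over all genes tested, 26.8% were lower and 32.6% higher. MYC, at 380.8 and 386.6 TPM with sgNS, was lower in the libraries labelled sgMETTL1.3 (320.0 and 316.9 TPM) and sgMETTL1.6 (309.1 and 311.1 TPM), a log2 change of -0.29 ± 0.026 (adjusted p = 1.0e-06). Its values move opposite to those of most of the factors, and a part of MYC in their change was not tested.

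Since so many of the factors moved together, the DNA around their starts was read. The RefSeq promoter table (GRCh38.p14, 250 bases before to 50 after each start) held 46 of the 56 genes. It had no entry for NOP58, NOLC1, RRP1B, RRP12, RRS1, BOP1, DDX18, POLR1E, TCOF1 and MPHOSPH10. The E-box CACGTG, the palindrome that MYC with MAX binds, was found in 17 of the 46 (37.0%) and in 8.77% of 27305 genes in the table. By call, it was in 16 of 41 genes that rose, 1 of 2 that fell (NOP10) and 0 of 2 that did not pass. The ETS motif CCGGAAGT, searched on both strands, was in 13 of 46 (28.3%) and 4.95% of all genes, and the palindromic NRF1 motif in 3 of 46 (6.52%) and 1.52%. None of the 3 motifs contains another, and a match says only that the letters are present. The 27305 genes outnumber the 10911 tested, so they include genes not tested here. Shares among the tested genes alone were not computed.

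The E-boxes sat mostly just after the start. Counting the first base after the 250 as position 0, 14 of the 56 promoters that the table gives for these 46 genes (25%) had one beginning at position 0 to 49, against 0.883% of all 35116 promoters. In the 50 bases before the start the shares were 5.36% and 2.00%. With the 250 bases before the start alone, 4 of 46 genes held an E-box (8.70%, and 7.73% of all genes). The 30 bases around the E-box, its letters in capitals, are shown 5′ to 3′ on the gene's strand for the 8 genes with the largest rise among those 14, and for NOP10, whose mRNA fell, to compare their flanks:
NOP2: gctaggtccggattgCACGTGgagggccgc
GNL3: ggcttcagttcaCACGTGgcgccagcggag
MRTO4: cgtcttccgccgCACGTGgattcagcgcga
LTV1: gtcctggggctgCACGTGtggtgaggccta
EBNA1BP2: tggcgctggagcgattcggtggCACGTGga
PNO1: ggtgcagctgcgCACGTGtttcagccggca
IMP4: ttctcccggaccCACGTGgaagcggcactc
GAR1: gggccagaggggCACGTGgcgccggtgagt
NOP10: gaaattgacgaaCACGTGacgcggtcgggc

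In GRCh38.p14 these stretches are chr12:6568242-6568271 on the minus strand (NOP2), chr3:52686026-52686055 on the plus strand (GNL3), chr1:19251807-19251836 on the plus strand (MRTO4) and chr6:143843354-143843383 on the plus strand (LTV1). The others are chr1:43172241-43172270 on the minus strand (EBNA1BP2), chr2:68157885-68157914 on the plus strand (PNO1), chr2:130342900-130342929 on the plus strand (IMP4), chr4:109815781-109815810 on the plus strand (GAR1) and chr15:34343130-34343159 on the minus strand (NOP10). The E-box began at position 35 in NOP2, 6 in GNL3, 14 in MRTO4, 28 in LTV1, 42 in EBNA1BP2, 9 in PNO1, 15 in IMP4 and 31 in GAR1. In NOP10 it began at -11, before the start, and a further one lay at -170.

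**Figure D5:**
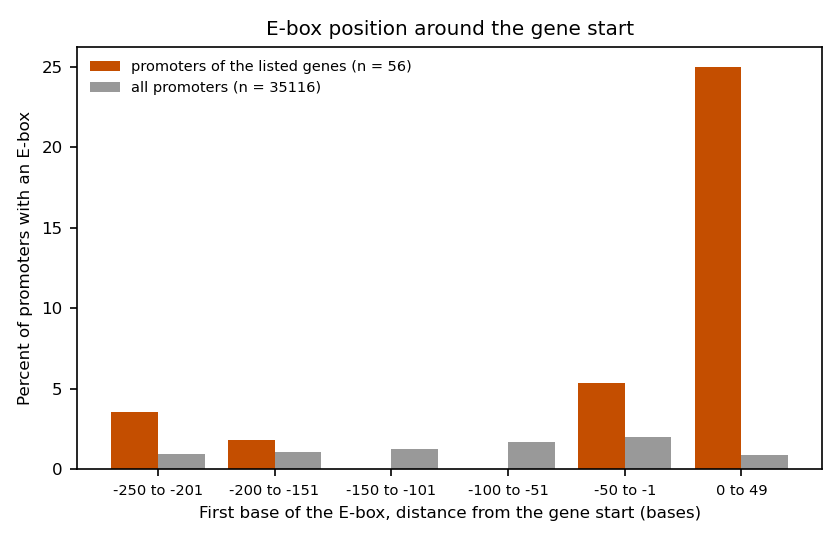
Percent of promoters with an E-box beginning in each stretch of 50 bases (horizontal axis, distance from the gene start) for the 56 promoters of the 46 matched genes and all 35116 promoters. The bars of the listed genes peak at 25% in the first 50 bases after the start, where all promoters are at 0.883%.

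Some of the factors also host snoRNA genes, which the choice of genes did not use. In GENCODE 29, 9 of the 55 (16.4%) hold at least 1 snoRNA gene inside them on the same strand, against 1.82% of the 10637 tested genes with a position. SnoRNAs of such hosts are cut from the introns, and poly(A) libraries do not measure them. NOP56 holds 5 (SNORA51, SNORD56, SNORD57, SNORD86 and SNORD110), NCL holds SNORA75, SNORD20 and SNORD82, and DKC1 holds SNORA36A and SNORA56. The other hosts were GNL3, PPAN, TSR1, WDR43, POLR1C and NOP58. Of the 9 host mRNAs 8 rose and NOP58 did not pass, a share near that of the whole list (87.3% higher).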

How the data were processed

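Poly(A) RNA of 6 Mono-Mac-6 libraries (sgNS, sgMETTL1.3 and sgMETTL1.6, 2 each, grouped by title) was analysed. The authors deposited TPM in 1 table of 18806 gene symbols; RSEM 1.2.31 and GRCh38 were used, per the submitters' processing notes, and no aligner or annotation is named (not given in the sources used here). Because RSEM assigns ambiguous reads by estimation, 12 of the genes, for which GENCODE 29 names pseudogenes, and 5 that share exons on the same strand with another gene carry extra doubt. TPM keeps no depth, and a fixed total per library means that abundant genes shift the others.

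Columns were matched to samples by name; all 6 names also carry the letters EV, left unexplained by the labels. The test was limma 3.58.1 (R 4.3.3; empirical Bayes with a mean-variance trend; residual degrees of freedom 3, prior 9.84) on log2(TPM + 1) of 10911 genes whose mean reached 1 TPM, with Benjamini-Hochberg adjustment over all of them and adjusted p under 0.05 called. Fold changes on this scale understate low genes. All 3 groups entered 1 fit, and the contrasts were the guides jointly and singly against the control and the difference between the guides. The procedure was tested on simulated data. The genes, lists and classes were chosen with earlier results of these data known. Values per library are given for the snoRNP core, the 3 largest rises and falls and the highest level of each class, and the largest guide differences, and others where a complex is described. Of the wider list the 3 largest rises and falls of each class are named, and others of a class beside them where they complete a count. A planned comparison of paralog proteins was not made, since no protein table was used here. Same-numbered replicates did not deviate together in each pair of groups, so the numbers were not used as a block. Alternatives were other pseudocounts, filters, scalings, variance models, a block and leaving out each library.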

Additional observations from a re-analysis of the deposited data

Results flagged for a closer look

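The 16 genes below differed between the METTL1 guides by a test of the difference itself (limma on the contrast of sgMETTL1.6 minus sgMETTL1.3, adjusted p under 0.05, 2 libraries per guide). Lower in the libraries labelled sgMETTL1.6 were GNL3L (log2 -0.43), RRP12 (-0.24), POLR1A (-0.24), POLR1E (-0.23), NOP2 (-0.21), DDX56 (-0.20), RRP9 (-0.20), NOC2L (-0.19), IMP4 (-0.18), TCOF1 (-0.17), HEATR1 (-0.15), LTV1 (-0.14), RRP8 (-0.14), WDR75 (-0.13) and NOP58 (-0.11). GAR1 was higher there (0.21). These are 27.3% of the 55 as lower and 1.82% as higher, where 15.8% and 7.23% of all genes tested passed. Of the 15 lower genes, only GNL3L, RRP12, POLR1A, NOP2 and DDX56 stayed lower under each of the 3 rescalings. The count of 15 also depended on other settings, as given below. In RRP12, POLR1E and NOP58 the changes against sgNS had opposite signs, at 0.21 and -0.034, 0.16 and -0.071, and 0.020 and -0.088 for sgMETTL1.3 and sgMETTL1.6. In none of these genes did both changes pass against sgNS. Not passing were RRP12 with sgMETTL1.6 (limma adjusted p = 0.62), POLR1E with either guide (0.094 and 0.46) and NOP58 with sgMETTL1.3 (0.64).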

How the results depend on the processing

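Of the 48 rises over both guides 40 passed in each of 16 alternatives, as did both falls. The count of rises ranged from 41 to 47 with a library left out and from 43 to 48 otherwise, and no gene outside the test's threshold passed it. The median log2 change of the 55 genes (0.292) was 0.305 with a pseudocount of 0.1 or 0.5 TPM, 0.269 with a pseudocount of 5 TPM, after median-ratio scaling or with ribosomal protein genes left out, 0.266 with quantile normalization, and 0.288 to 0.306 with a library left out. For the wider list it was 0.149 with a pseudocount of 5 TPM, 0.138 with median-ratio scaling, 0.147 with quantile normalization and 0.134 without ribosomal protein genes (main value 0.163). Median-ratio scaling gave 3150 rises and 3218 falls over all genes, against 3556 and 2928.

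The count of genes lower with sgMETTL1.6 than with sgMETTL1.3, 15, was 3 with no filter on low values, 6 with median-ratio scaling, quantile normalization or no variance trend, 7 without ribosomal protein genes, and 5 to 12 with a library left out; the cause was not tested. POLR1E, not called, changed sign without sgNS replicate 1 (-0.003), sgMETTL1.3 replicate 1 (-0.004) and sgMETTL1.6 replicate 2 (-0.009), in a range with a library left out of -0.009 to 0.097. With the promoter window ending at the start, 4 genes held CACGTG in place of 17 (8.70% and 37.0% of 46). Over all genes in the promoter table the shares were 7.73% and 8.77%. The window left out positions 0 to 49, where 14 of the 56 promoters of the listed genes had an E-box beginning.

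Same-numbered libraries were not shown to be paired: their deviations correlated over 10911 genes with r = -0.005 (sgNS and sgMETTL1.3), 0.207 (sgNS and sgMETTL1.6) and 0.146 (sgMETTL1.3 and sgMETTL1.6). With a replicate block the counts over both guides were 48 rises and 2 falls, and 26 genes were lower with sgMETTL1.6 than with sgMETTL1.3. Leaving out a library leaves its group with 1 sample, assumed to vary like the other groups. TPM keeps no depth, so no limit from depth can be given.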
